A study of Mus musculus with 16 samples.

Results

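The cells described here were 607 glutamatergic neurons of the mouse hypothalamus and preoptic area (POA) chosen by Slc17a6, the vesicular glutamate transporter gene, without GABA genes or Foxb1 and below limits for 5 peptide precursors. The limits did not remove every peptide type, since 17 of the cells were rich in Avp, 30 in Tac1 and 4 in Oxt (10 or more counted mRNA molecules), and 81 formed a cluster with thalamic and habenular markers. Members were selected on measured values: a barcode needed at least 2 unique molecular identifiers (UMIs, each a counted mRNA molecule) of Slc17a6, no UMI of Gad1, Gad2, Slc32a1 or Foxb1, fewer than 10 UMIs each of Hcrt, Pmch and Pomc, and fewer than 3 each of Trh and Tac2. It also needed more than 200 and fewer than 4000 genes, under 15% of its UMIs on mitochondrial genes, and at least 3 of 8 genes of general neuronal use (Map1b, Meg3, Ndrg4, Snap25, Celf4, Stmn2, Syt1 and Snhg11). The 607 cells were 6.27% of the 9679 neurons and 1.09% of the 55675 barcodes that passed the quality limits, out of 146538 deposited barcodes. Levels of these genes were therefore set by the selection and are given as description.

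Slc17a6 (chr7:51622006-51671119, plus strand, GRCm38) encodes VGLUT2, the transporter that loads glutamate into synaptic vesicles, and it marks most excitatory neurons of the hypothalamus and thalamus. Gad1 and Gad2 make GABA from glutamate and Slc32a1 loads GABA into vesicles, so these genes mark inhibitory neurons. In the hypothalamus, excitatory neurons form many small nuclei, among them the ventromedial, paraventricular, supraoptic and mammillary nuclei, which are told apart by transcription factors and peptides rather than by their transmitter. A block of tissue cut around the hypothalamus can also carry neurons of the neighbouring thalamus.

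Each of the 16 libraries came from 1 female mouse that was 8 to 10 weeks old when dosing began. The mice were of a mixed CD-1;129P2 background. In the Esr1 cKO mice a BAC transgene with Cre under Nkx2-1 control acts on a floxed Esr1 allele, so that estrogen receptor alpha is removed from cells of the Nkx2-1 lineage only, and the wild-type mice were littermates without Cre. Mice received 28 daily subcutaneous injections of 0.1 mg/kg tamoxifen, a ligand of the estrogen receptor, or of the oil vehicle, and were killed 2 h after the last one. The groups were wild-type oil (3 mice), wild-type tamoxifen (5), Esr1 cKO oil (4) and Esr1 cKO tamoxifen (4), and single cells were profiled by Drop-seq, which tags the 3′ end of each mRNA inside a droplet.

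The selected neurons carried 2098495 UMIs in all, with a median of 3130 UMIs and 1959 genes per cell and 3.35% of UMIs on mitochondrial genes. Slc17a6 gave 2 UMIs in 267 of them, 3 in 154 and 4 or more in 186, with a maximum of 15. Just outside the limit were 578 neurons with 1 Slc17a6 UMI that met the other criteria, which were shallower at a median of 1782.5 UMIs against 2426 for the cells with exactly 2. A further 75 neurons were left out for a single UMI of a GABA gene. Of all 939 neurons with 2 or more Slc17a6 UMIs, 150 carried a UMI of a GABA gene, 127 of the rest carried Foxb1 and 55 of the rest passed a peptide limit. Slc17a6 was pooled at 948 CPM (UMIs of the gene scaled to a common total of UMIs, 1e6) in the selected neurons and at 10.4 CPM in 29091 kept barcodes with none of the 8 neuronal genes, of which 0.660% had a Slc17a6 UMI at a median depth of 547 UMIs. The other vesicular glutamate transporters were scarce, with 8 UMIs of Slc17a7 and 21 of Slc17a8.

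Several libraries stood apart before any group was compared. The libraries numbered 13 to 16 in the labels (wild-type tamoxifen replicates 4 and 5, Esr1 cKO oil replicate 4 and Esr1 cKO tamoxifen replicate 4) shared 303 to 359 kept cell barcodes per pair, against at most 10 in any pair of the other 12 libraries. Wild-type oil replicate 2 shared 42, 22, 16 and 10 with wild-type tamoxifen replicate 4, Esr1 cKO oil replicate 4, Esr1 cKO tamoxifen replicate 4 and wild-type tamoxifen replicate 5. The profiles of a barcode in its first 2 such libraries had a median correlation of 0.562, against 0.114 for 500 pairs of different barcodes of the same libraries. Of the 607 selected neurons, 29 had a barcode that was also kept in another library, 24 of them in the libraries numbered 13 to 16, 4 in wild-type oil replicate 2 and 1 in Esr1 cKO tamoxifen replicate 3. In a principal component analysis of the summed profiles, Esr1 cKO tamoxifen replicate 3 and wild-type oil replicate 3 lay at 40.0 and 48.5 on the first component (26.4% of the variance), while the other 13 lay between -15.0 and 0.864. These were also the only libraries deposited with at least 100 genes per barcode instead of 20. Esr1 cKO tamoxifen replicate 2 gave only 2 selected neurons and could not enter the tests of expression, which used the 15 libraries with 10 or more.

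The first question was whether tamoxifen or the loss of Esr1 altered how many neurons met the definition. The share of neurons was 9.40%, 7.94% and 6.90% in the wild-type oil libraries. It was 6.53%, 3.77%, 6.54%, 5.35% and 8.58% with wild-type tamoxifen. It was 4.49%, 3.41%, 6.04% and 7.01% with Esr1 cKO oil, and 7.41%, 0.806%, 8.45% and 4.53% with Esr1 cKO tamoxifen. The groups overlapped in every comparison. The mean was 8.08 ± 1.25% (SD, n = 3) in wild-type oil and 6.15 ± 1.77% (n = 5) in wild-type tamoxifen, a difference of -1.93 percentage points (two-sided exact permutation test, p = 0.179, adjusted p = 0.357 over 4 comparisons). Esr1 cKO oil averaged 5.23 ± 1.60% (n = 4), which was -2.85 points from wild-type oil (exact permutation p = 0.114, adjusted p = 0.357). Esr1 cKO tamoxifen averaged 5.30 ± 3.42% (n = 4), 0.0620 points from Esr1 cKO oil (exact permutation p = 0.971) and -0.856 points from wild-type tamoxifen (exact permutation p = 0.651, adjusted p = 0.868). Neither of these last differences kept its sign under every omission of 1 library, the first running from -0.988 (without Esr1 cKO tamoxifen replicate 3) to 1.56 points and the second from -1.91 to 0.640 points (the highest of each without Esr1 cKO tamoxifen replicate 2). No comparison passed the threshold, but group sizes limit these tests: the smallest two-sided p they allow is 0.0571 for genotype under oil and 0.0357 for tamoxifen in wild-type mice, and a single difference could not pass after adjustment over 4 comparisons. The study's methods state that 4 mice were processed per day over 4 days, and the labels do not give the day. In each of the 3 sets of 4 successive library numbers that held both groups, the share was lower in Esr1 cKO oil than in wild-type oil (by -4.91, -4.54 and -0.865 points) and lower in wild-type tamoxifen than in wild-type oil (by -2.88, -4.17 and -0.364 points). Without the 2 libraries that stood apart, the difference was -2.52 points for tamoxifen in wild-type mice and -3.44 points for genotype under oil. When 1 Slc17a6 UMI was enough, it shrank to -0.581 points for tamoxifen in wild-type mice (12.8% against 13.3%). For genotype under oil it was then -2.34 points. The single low value, 2 cells of 248 neurons in Esr1 cKO tamoxifen replicate 2, had an exact (Clopper-Pearson) 95% interval of 0.0978% to 2.88%, which covers counting error only.

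**Figure D1:**
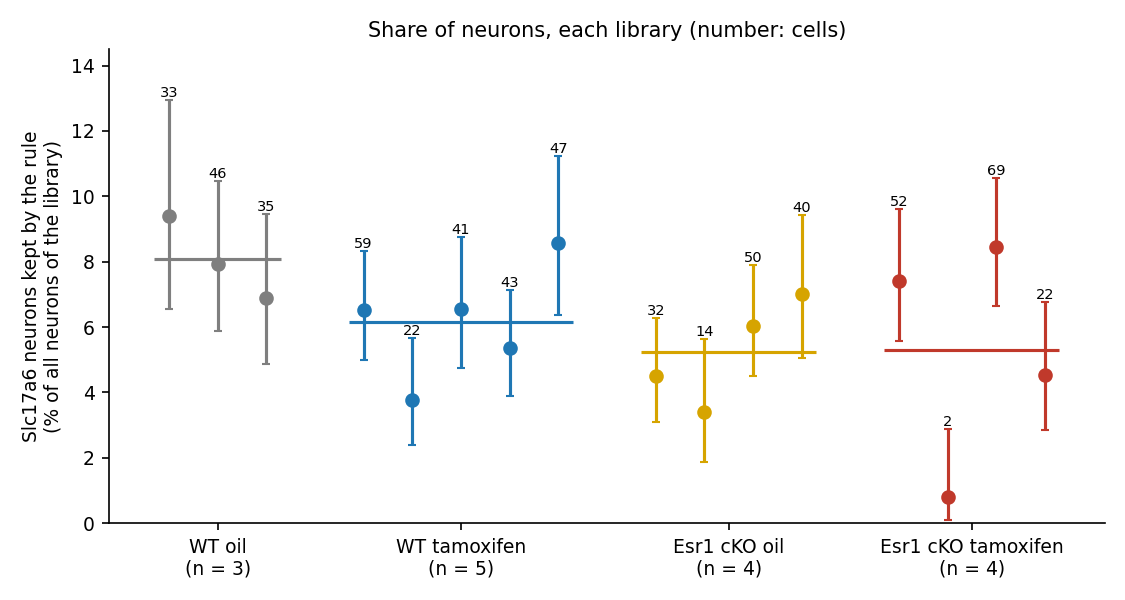
Share of all neurons of a library (y axis, %) that met the definition, for each of 16 libraries by group. Points are libraries with exact 95% binomial intervals, horizontal lines are group means, and the number above each point is its cell count. The Esr1 cKO tamoxifen library with 2 cells sits at 0.806%, below all others, and the groups overlap.

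The next comparison asked which genes outside the selection separated these excitatory neurons from inhibitory neurons of the same mice. The comparison cells were 2658 GABAergic neurons chosen by the mirrored rule (2 or more UMIs of the GABA genes and no Slc17a6), with a median of 2349.5 UMIs, and each library served as its own block. Of 5328 genes tested, 342 passed an adjusted p of 0.05 in edgeR's quasi-likelihood test (6.42%), 214 higher in the glutamatergic neurons (4.02%) and 128 lower (2.4%). The count filter asked for 41.7 CPM in 14 of the 30 profiles, so a gene could pass it through 1 kind of cell alone, which favours a difference in that direction. The balance of directions depended on this filter. A fit without it called 638 of 23556 genes, 173 higher and 465 lower. Of the 342 genes, 231 reached the filter in both kinds, 155 higher and 76 lower of 2870 tested, among them the calcium channel subunit Cacna2d1 and the calcium buffer Calb2 (higher) and Gal and Nrxn3 (lower). The growth factors Nrn1 and Bdnf passed through the glutamatergic neurons alone, and Dlx1, Dlx6 and Six3, transcription factors of inhibitory lineages, through the GABAergic neurons alone, so their levels are given as description with no p. Without the 2 libraries that stood apart 237 genes were called, 217 of them among the 342, and without shared barcodes 315, 301 of them among the 342. Of the 342 genes, 11 were higher and 17 lower in every one of the 15 libraries.

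Nrn1 (chr13:36725361-36735131, minus strand), a membrane-anchored protein that promotes neurite growth and synapse maturation, ranged from 18.2 to 205 CPM with a median of 142 in the glutamatergic neurons. In GABAergic neurons it ranged from 0 to 14.8 CPM with a median of 2.28. The lowest glutamatergic value, in wild-type oil replicate 1, lay above every GABAergic value, so the kinds did not overlap. Its log2 fold change was 5.01 (SE 0.24). Bdnf (chr2:109674700-109727007, plus strand), the neurotrophin that supports synaptic plasticity, ranged from 45.8 to 250 CPM around a median of 91.2, against 0 to 24.6 around 9.02 in GABAergic neurons. The ranges of Bdnf did not overlap either, and its log2 fold change was 3.38 (SE 0.20). A UMI of Nrn1 was found in 25.9% of the glutamatergic and 0.752% of the GABAergic neurons, and 11.5% against 0.255% once every cell was thinned to 1000 UMIs (540 and 2351 cells remained).

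Cacna2d1, which encodes the alpha-2/delta-1 subunit of voltage-gated calcium channels, was at 380 to 807 CPM (median 531) in the glutamatergic neurons and 117 to 234 CPM (median 163) in GABAergic neurons. These ranges did not overlap, and the log2 fold change was 1.75 (SE 0.08, adjusted p = 1.19e-21). Calb2, encoding the calcium buffer calretinin, ran from 160 to 689 CPM (median 383) against 65.7 to 167 CPM (median 128). The ranges of Calb2 overlapped slightly (log2 fold change 1.64, SE 0.11, adjusted p = 4.39e-16). It was higher in each of the 15 libraries, a condition by which these genes were chosen. The other genes higher in every library had smaller changes. Nell2, a secreted glycoprotein made by neurons, was higher by 1.30 on the log2 scale and the neurofilament gene Nefm by 1.13. Fxyd7, a regulator of the sodium pump, was higher by 1.09, the neuronal surface glycoprotein gene Thy1 by 0.85, the vesicle fusion factor Napb by 0.53, and Slc12a5, the potassium-chloride cotransporter that keeps neuronal chloride low, also by 0.53. Nefm passed the filter through the glutamatergic neurons alone, so its value is a description with no p. For Nell2, Fxyd7, Thy1, Napb and Slc12a5 the adjusted p-values by edgeR lay between 2.96e-14 (Nell2) and 0.00014 (Slc12a5).

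**Figure D2:**
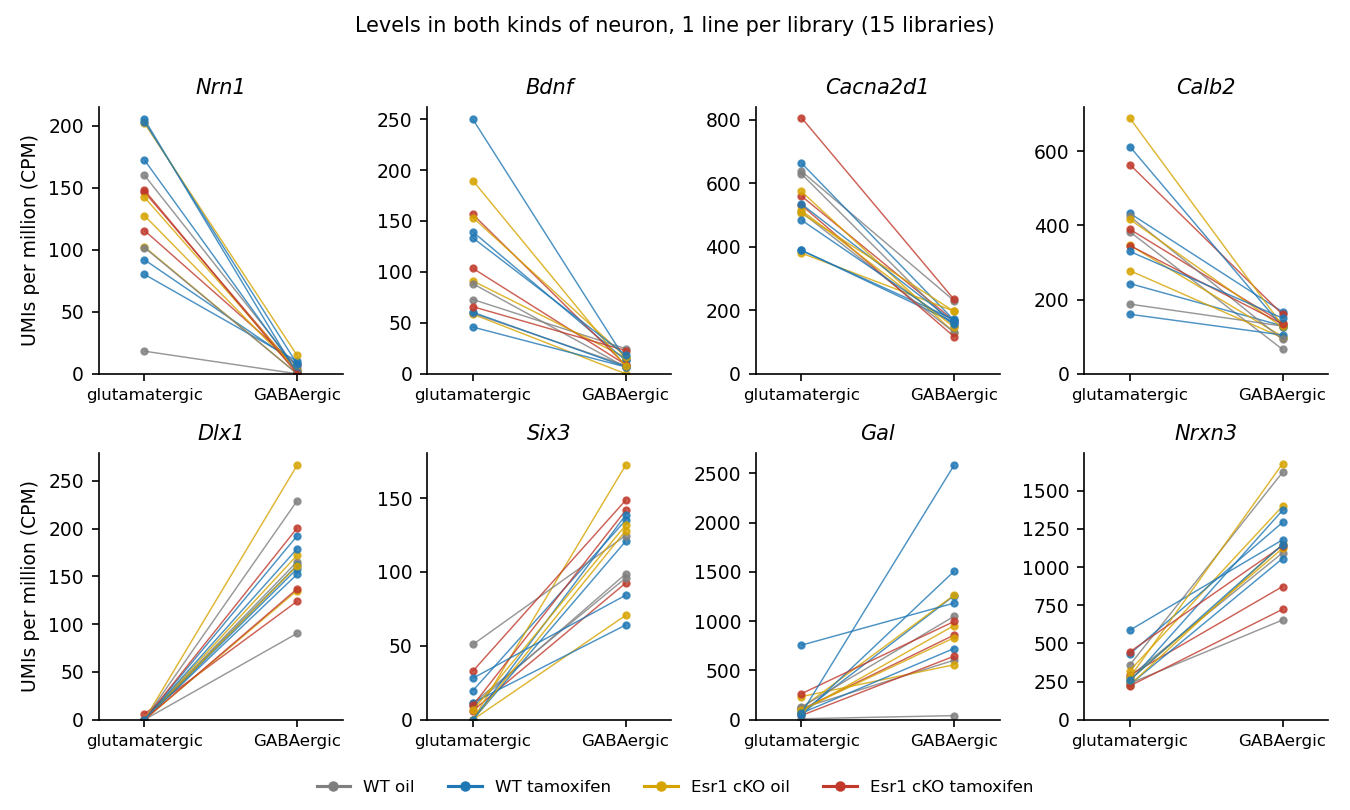
Level of 8 genes (y axes, CPM) in glutamatergic and in GABAergic neurons of the same library, 1 line per library and coloured by group, for 15 libraries. All lines fall for Nrn1, Bdnf, Cacna2d1 and Calb2 and all rise for Dlx1, Six3, Gal and Nrxn3, in each of the 4 groups. The genes were chosen among those that differed in 1 direction in every library.

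Among the genes that were lower, Dlx1 and Dlx6, homeobox factors that specify forebrain inhibitory neurons, were almost absent. Dlx1 gave 1 UMI in the 607 glutamatergic neurons and 1280 in the GABAergic neurons, a ratio of CPM of 367 with a 95% counting interval of 65.7 to 14500. Dlx6 gave 1 UMI against 443, a ratio of 127 (22.7 to 5026). Six3, a homeobox factor of the anterior forebrain, had a median of 9.11 CPM against 125 CPM, and its log2 fold change was -3.28 (SE 0.25). Gal, the precursor of galanin, ranged from 9.11 to 756 CPM with a median of 101, against 41.1 to 2581 CPM with a median of 955, and its log2 fold change was -2.99 (SE 0.19, adjusted p = 3.38e-17). Its ranges overlapped, with the highest glutamatergic value in wild-type tamoxifen replicate 2. Gal was lower in each of the 15 libraries, a condition by which these genes were chosen. Nrxn3, a presynaptic adhesion molecule, was at 222 to 586 CPM against 653 to 1677 CPM without overlap, and its log2 fold change was -1.88 (SE 0.09, adjusted p = 2.15e-22). Rgs16, a brake on G protein signalling, fell by 1.51 on the log2 scale and the nuclear receptor gene Rorb by 0.94. Enpp2, which makes lysophosphatidic acid, fell by 0.88 and Abat, the GABA-degrading transaminase, by 0.53. Sptssa, a subunit of the enzyme that starts sphingolipid synthesis, fell by 0.50. Of these, Rgs16, Enpp2 and Sptssa passed the filter through the GABAergic neurons alone, so their values are a description with no p. Sptssa was not past the threshold in 8 of 23 alternative settings.

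Genes of known function were then counted by list, beside a median log2 fold change of 0.01 over all genes tested, of which 4.02% were called higher and 2.4% lower. Of 18 listed GABAergic lineage genes, 9 passed the count filter. Beside Dlx1, Dlx6 and Six3, Isl1 (-0.88) passed through the GABAergic neurons alone, as did the synaptic vesicle gene Synpr, which was higher (0.63). Nr2f2, which reached the filter in both kinds, was lower (-0.54). Neuropeptide precursors went both ways, with 6 of 12 lower and 2 higher, and of the 6, Npy, Pnoc, Penk and Sst passed the filter through the GABAergic neurons alone. Npy was lowest, at a mean of 10.6 ± 16.9 CPM against 352 ± 339 CPM (SD, n = 15 libraries; log2 fold change -5.14), followed by Gal, Pnoc at -2.03, Sst at -1.82, Penk at -1.29 and Nts at -0.90. Tac1, the precursor of substance P, averaged 399 ± 345 CPM against 124 ± 101 CPM and was higher in 13 of 15 libraries (1.59, SE 0.19). With 15 glutamatergic and 13 GABAergic profiles at the filter's level, Tac1 met the 14 needed through the glutamatergic neurons alone. Its values are therefore a description with no p. Cck was higher by 0.87 (edgeR adjusted p = 0.00344). Calcium-binding proteins were the list with the most calls upward, 8 of 11 and none lower, led by Calb2, Necab1 at 1.51 and Calb1 at 0.65 and including all 3 calmodulin genes at 0.20 to 0.27.

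Receptors and channels were counted next. None of 7 tested AMPA receptor subunits was called (Gria2, the most abundant, averaged 777 ± 121 against 855 ± 128 CPM, log2 fold change -0.12, adjusted p = 0.27), and of 3 NMDA receptor subunits only Grin3a was higher (0.56). Of 14 GABA receptor subunits, 4 were higher (Gabra4 at 0.90 and Gabbr2 at 0.80 among them) and none lower. Among 12 potassium channel genes, 4 were higher (Kcnq3, Kcnip4, Kcnh7 and Kcnq5, by 0.46 to 0.71). Of 11 peptide processing genes, 4 were higher, among them the convertases Pcsk1 (1.54) and Pcsk2 (0.62), and the granin family members Scg2 (-0.75) and Vgf (-0.68) were lower. Of 10 immediate early genes, which report recent activity and also the stress of dissociation, 6 were lower, led by Fos at 330 ± 156 against 623 ± 191 CPM (log2 fold change -0.92, adjusted p = 7.04e-08), and none was higher. Of 9 steroid and hormone receptors, Rorb, the prolactin receptor Prlr (-0.75) and Rora (-0.46) were lower.

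Markers of other cells were measured in the same fit. None of the tested markers of astrocytes (4 genes), oligodendrocytes (3) or endothelium (1) was called. The summed oligodendrocyte markers, led by Mbp at 407 CPM, stood at 1000 CPM in the glutamatergic neurons, 1076 CPM in GABAergic neurons and 30310 CPM in barcodes without neuronal genes. The red blood cell gene Hbb-bs was lower (47.3 against 288 CPM on average, log2 fold change -2.06), yet higher in 4 of 15 libraries. Its part in the results was not tested. Apoe, an abundant gene of astrocytes, had a UMI in 32.6% of the glutamatergic neurons, 31.0% of the GABAergic neurons and 70.9% of the barcodes without neuronal genes.

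Most transcription factors that name excitatory nuclei fell below the count filter and were read from a fit without it, in which every gene was tested. That fit also calls genes carried by a single cell, so the number of libraries is given with each gene read from it as higher. Fezf1, of the ventromedial nucleus, gave 75 UMIs in the glutamatergic and 5 in the GABAergic neurons (log2 fold change 4.81, higher in 13 libraries). Lhx9, listed as a marker of the lateral hypothalamus, gave 104 against 13 (4.39, 14 libraries). Among the 607 cells, Lhx9 was more than 1 log2 unit higher in the cluster with thalamic and habenular markers than in the rest. Genes of the ventromedial list did not all stand higher. Of its 10 markers, 3 were tested in the filtered fit, Bdnf and Fam19a1 being higher and the most abundant, Dlk1, lower (log2 fold change -1.77 by edgeR, adjusted p = 8.68e-15). In cells thinned to 1000 UMIs, Dlk1 was detected in 12.8% of the glutamatergic and 37.9% of the GABAergic neurons. The summed level of the 10 markers was 668 CPM in the glutamatergic and 830 CPM in the GABAergic neurons. Adcyap1, the precursor of the peptide PACAP, gave 224 UMIs against 57 (3.45, 15 libraries). Nhlh2 (4.04), Neurod1 (4.11), Uncx (3.09), Cbln1 (2.93), Ebf3 (2.49) and Sim1 (2.28) were higher in 10 to 14 libraries each. On the other side, Vip, the precursor of vasoactive intestinal peptide, had no UMI in the 607 cells against 1266 UMIs. It was at least 121-fold lower by a floor of 3 UMIs over the group. Agrp gave 4 UMIs against 513. Few cells carried these peptides in quantity, since 47 of all neurons had 10 or more UMIs of Vip and 26 of Agrp.

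The glutamatergic neurons most like them were 127 cells that met every criterion except for carrying Foxb1, a factor of the mammillary body. Only 4 libraries (wild-type oil replicates 1 and 2, wild-type tamoxifen replicate 1 and Esr1 cKO tamoxifen replicate 1) held 10 or more cells of both kinds. Of 2335 genes tested, 193 were called (8.27%), 89 higher in the cells without Foxb1 (3.81%) and 104 lower (4.45%). The count rested in part on single libraries and on the tool, since 119 genes were called without wild-type oil replicate 1, 116 without wild-type tamoxifen replicate 1 and 81 with DESeq2 (26 higher and 55 lower). Only 83 of the 193 reached the filter of 102 CPM in both kinds (33 higher and 50 lower of 1130 tested), while 56 of the higher genes passed through the cells without Foxb1 alone and 50 of the lower ones through the Foxb1 cells alone. A fit without the filter called 262 of 20714 genes, 179 higher and 83 lower, the opposite balance. Except for Hopx, each gene named in this comparison passed through the kind in which its level was higher, so the values are a description and no p is given.

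Fos, an immediate early gene, was at 137, 248, 243 and 408 CPM in these libraries, in the order above, against 34.7, 63.1, 21.5 and 16.5 CPM in their Foxb1 cells, without overlap (log2 fold change 2.82, SE 0.41). Tac1 was at 1312, 215, 348 and 189 CPM against 0, 110, 21.5 and 49.5 CPM, the highest by far in wild-type oil replicate 1 (3.53, SE 0.57). Its log2 fold change ran from 1.94 to 4.95 over 11 alternative settings, and in 1 of them it was not past the threshold. Of the other genes higher in all 4 libraries, Calb2 changed by 3.11, the imprinted genes Dlk1 and Nnat by 2.74 and 2.61, the sodium pump regulator gene Fxyd6 by 2.48, Rab3c, a vesicle GTPase, by 2.46, the potassium channel gene Kcnd2 by 2.20 and the noncoding Gm26871 by 3.19. Of 5 tested AMPA receptor genes, Gria1 and Gria4 changed by 1.61 and 1.51, which is a description for the same reason. No calls are counted for that list or for the immediate early genes. The log2 fold change of Dlk1 ran from 2.22 to 7.23 over 11 alternative settings, and in 1 of them it was not past the threshold.

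In the other direction, Pvalb, encoding the calcium buffer parvalbumin, was at 0, 11, 0 and 24.3 CPM against 417, 221, 301 and 132 CPM, without overlap (6 UMIs in all against 72, log2 fold change -4.48, SE 0.56). Lhx1, a mammillary homeobox factor, was at 9.11, 33.1, 19.7 and 30.4 CPM against 347, 284, 215 and 182 CPM (15 UMIs against 69, log2 fold change -3.27). Cck was at 63.8, 71.8, 85.4 and 85.2 CPM against 440, 505, 323 and 446 CPM (log2 fold change -2.42). None of these 3 genes overlapped between the kinds. The genes Cpne9, Hopx, Rprm, Gpr83, Epha7, B230323A14Rik and 1500016L03Rik were lower in all 4 libraries as well, by -3.46 to -2.31 on the log2 scale. Nrn1 and Adcyap1, which were higher than in GABAergic neurons, were lower than in Foxb1 neurons, with log2 fold changes of -1.44 (lower in 4 of 4 libraries) and -1.07 (lower in 3 of 4). Among markers of other cells, Apoe (1.33) was higher in the cells without Foxb1. Its part in the other differences was not tested.

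Although the rule removed cells rich in 5 peptides, many of the remaining neurons carried others. Of the 607, 83 (13.7%) had 10 or more UMIs of at least 1 of 30 listed peptide precursors, and 9 had 2 or more such peptides. Pcsk1n, at 10 or more UMIs in 90 cells of 15 libraries, was not counted among the 30. Of the 30, Tac1 was the most common, in 30 cells of 11 libraries, which held 73.8% of its 825 UMIs. Avp followed with 17 cells, Cartpt with 13, Cck with 7, Nts with 5, and Gal and Penk with 4 each. A few hormone genes of the posterior pituitary and of reproduction were far more concentrated. Avp (chr2:130580620-130582554, minus strand), the precursor of vasopressin, gave 14435 UMIs, of which 17 cells in 10 libraries held 99.7%, with 39 to 3119 UMIs per cell and up to 25.1% of all UMIs of a cell. Oxt, the oxytocin precursor, gave 5254 UMIs with 98.7% in 4 cells, all 4 of them also rich in Avp. Gnrh1, encoding the hormone that drives gonadotropin release, was found in 5 cells, 3 of which held 747 of its 749 UMIs, and all 197 UMIs of Npvf came from 1 cell. Such cells set the library level: Avp ranged from 0 to 54827 CPM between libraries, with the maximum in wild-type tamoxifen replicate 2, and it did not differ from GABAergic neurons past the threshold (log2 fold change 1.26, SE 0.58, adjusted p = 0.219).

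A UMI of Avp was found in 8.57% of the glutamatergic neurons, 16.9% of GABAergic neurons and 3.44% of the barcodes without neuronal genes, and a UMI of Oxt in 7.41%, 6.92% and 3.12%, at median depths of 3130, 2349.5 and 547 UMIs. Single UMIs of these genes were therefore not read as expression, and only cells with 10 or more are described. The 17 cells rich in Avp or Oxt also carried transcription factors of the paraventricular and supraoptic nuclei. A UMI of Sim1 was present in 10 of the 17 against 38 of the other 590, of Otp in 12 against 34, of Pou3f2 in 14 against 40, and of the opioid precursor Pdyn in 10 against 68. The Avp-rich cells were deep, at a median of 7810 UMIs, and had a median of 2 Slc17a6 UMIs, the minimum the rule allows. In all neurons, 495 were rich in Avp, of which 431 had no Slc17a6 UMI and 298 had a UMI of a GABA gene, so the 17 were a small part of the vasopressin cells captured.

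**Figure D3:**
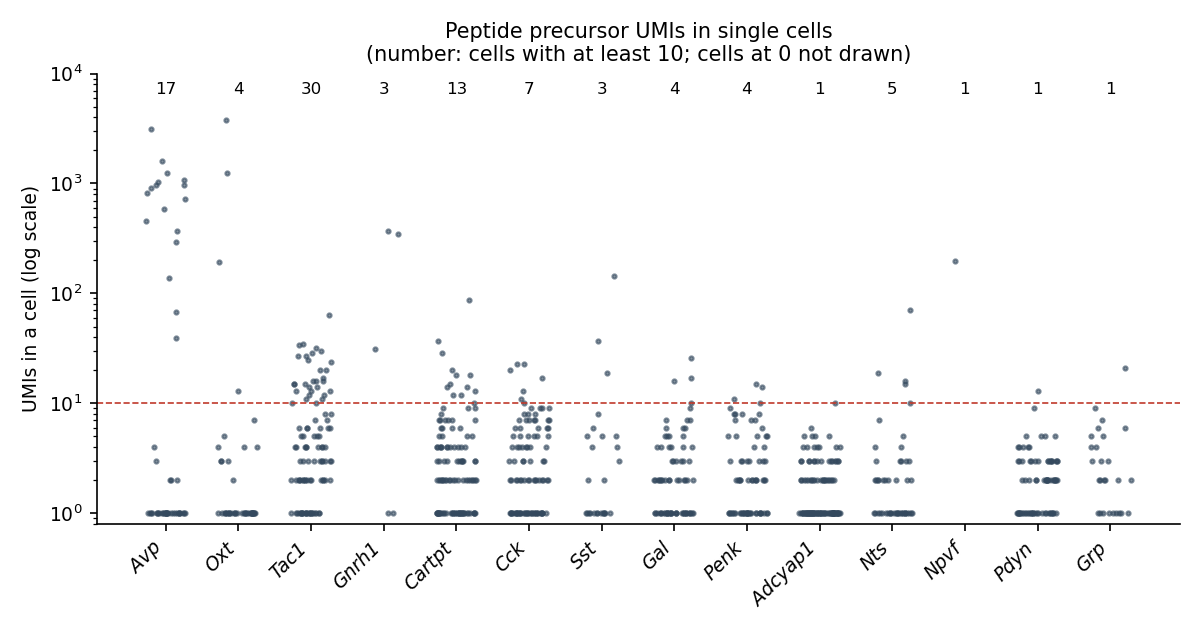
UMIs of 14 peptide precursors (x axis) in single cells (y axis, log scale) among the 607 glutamatergic neurons. Each point is a cell with at least 1 UMI, the dashed line marks 10 UMIs and the number on top counts cells at or above it. Avp has 17 such cells reaching 3119 UMIs, while Tac1 has 30 that stay at or below 63.

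The cells also divided by transcription factors of different regions, given here as a description because depth affects the chance of a UMI. Tcf7l2 (chr19:55741820-55933654, plus strand), a mediator of Wnt signalling that is high in thalamic neurons, was found in 122 cells with a median depth of 3560.5 UMIs against 3017 for the rest. Of those 122 cells, 24 carried the thalamic factor Gbx2, against 2 of the other 485. Ntng1, an axon guidance gene of thalamic neurons, was in 54.1% against 27.8%, and Prkcd, a protein kinase gene of thalamic relay cells, in 11.5% against 2.68%. Tcf7l2 was in none of the 17 cells rich in Avp or Oxt. Its background share was not negligible, at 6.77% of GABAergic neurons and 7.33% of barcodes without neuronal genes.

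Fezf1 was found in 44 cells, which were deeper than the rest (medians of 4955.5 and 3050 UMIs). Of these, 13.6% carried Nr5a1, the steroidogenic factor that defines the ventromedial nucleus, against 1.42% of the others, 45.5% carried Bdnf against 19.5%, and 40.9% carried Adcyap1 against 18.5%. Fezf1 was found in 0.188% of GABAergic neurons. Nkx2-1, the factor whose lineage loses Esr1 in the cKO mice, was detected in 83 cells (13.7%), against 4.85% of GABAergic neurons and 0.382% of barcodes without neuronal genes. The lineage of a cell was not recorded.

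Clustering the 607 cells without the genes of the rule gave 3 groups of 280, 246 and 81 cells. Since the clusters were drawn from these genes, their leading genes are a description. The third cluster was led by Shox2, Prkcd, Nbl1, Tcf7l2 and Gbx2. In it, 9 of 12 listed thalamic and habenular markers were more than 1 log2 unit higher than in the other cells. These were Tcf7l2, Prkcd, Gbx2, Rora, Prox1, Calb2, Ntng1, Plekhg1 and Ramp3, and the rest of the list had under 20 UMIs there. Lhx9 and Nek7 (lateral hypothalamic list), Cck and Cplx1 (mammillary), Foxp2 (supramammillary and subthalamic) and Slc1a2 (astrocyte) passed this limit too. The cluster was called thalamic- and habenular-like after the first list, and the name does not tell thalamus from habenula. The first cluster was led by Npvf (from 1 cell), Ptgds, Sgcz and Gm26905, and the second by Oxt, Gnrh1, Gm15862, Pth2 and Sst, genes carried by few cells, and both were left unnamed. The second cluster held 31 of 35 cells of wild-type oil replicate 3 and 55 of 69 of Esr1 cKO tamoxifen replicate 3, the 2 libraries that stood apart, and without them the other cells formed 4 clusters. A cluster of 53 cells then held 50 of the 64 thalamic- and habenular-like cells that were left.

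The thalamic- and habenular-like share is given by library number. It was 0 to 9.62% in the libraries numbered 1 to 8, where it made up 6 of 176 cells in numbers 1 to 4 and 4 of 84 in numbers 5 to 8. Single libraries numbered 9 to 16 ran from 8% (number 12) to 27.7% (number 16), so the ranges overlapped. In numbers 9 to 12 the pooled share was 31 of 195 cells (15.9%). In numbers 13 to 16 it was 40 of 152 (26.3%), or 21.9% once barcodes shared between libraries were removed. Each of these sets of 4 held mice of at least 3 groups, but numbers 13 to 16 held no wild-type oil mouse, and no test between groups was made on this share. The day on which each library was made was not in the labels. The level of Tcf7l2 in the glutamatergic neurons ran from 0 to 260 CPM in the libraries numbered 1 to 8 and from 161 to 623 CPM in those numbered 9 to 16. Where the tissue was cut was not recorded in the labels, and its part in this difference was not tested.

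**Figure D4:**
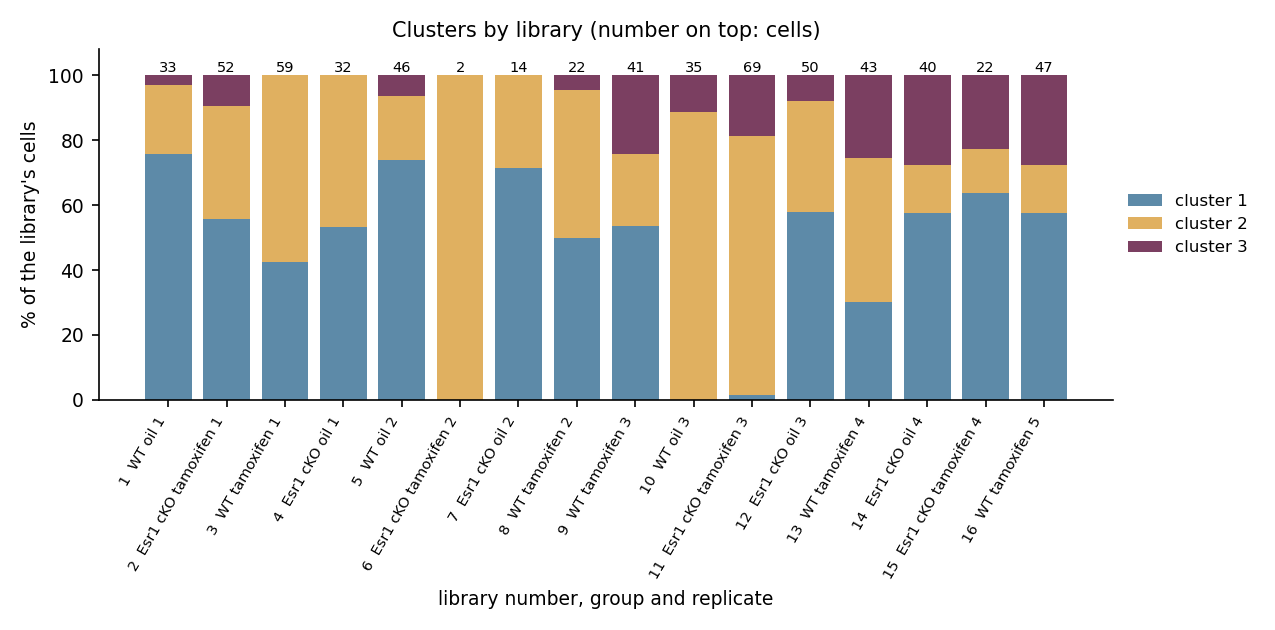
Percentage of the glutamatergic neurons of each library (y axis) in the 3 clusters, ordered by library number (x axis, with group and replicate). The number on top is the cell count. Cluster 3, thalamic- and habenular-like, is at most 9.62% in libraries 1 to 8 and reaches 27.7% in library 16, and cluster 1 holds 0 and 1 cell in libraries 10 and 11.

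The conditions of the study were then compared within the glutamatergic neurons, starting with the deleted gene. Esr1, which encodes the receptor that tamoxifen binds, gave 90 UMIs in 64 cells. It stood at 109, 88.4 and 25.5 CPM in the wild-type oil libraries and at 46.0, 68.7, 51.3, 17.2 and 49.1 CPM with wild-type tamoxifen. In Esr1 cKO mice it was at 9.12, 102, 32.9 and 44.2 CPM with oil and at 24.3, 9.78 and 32.9 CPM with tamoxifen. The genotypes overlapped, and the change with genotype was -0.79 (SE 0.61, adjusted p = 0.9999) under oil and -1.30 (SE 0.71, adjusted p = 0.999) under tamoxifen on the log2 scale. Counts of 3′ ends can include transcripts of an allele whose deleted exon lies upstream, and most of these cells had no Nkx2-1 UMI, so these counts do not check the genotype labels. Pgr, a target of the receptor, gave 69 UMIs in 42 cells and, like Nkx2-1, was too sparse to be tested.

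No gene passed the threshold in any comparison of conditions. Of 4327 genes tested by edgeR, 0 (0%) were called for tamoxifen in wild-type mice, for tamoxifen in Esr1 cKO mice, for the difference between these effects, and for genotype under oil and under tamoxifen, while 127, 127, 139, 144 and 160 genes had an unadjusted p under 0.05. DESeq2 called 0, 0, 0, 0 and 1 genes in the same order, the 1 being Gnrh1, which rested on 5 cells. The 15 libraries held 14 to 69 of these cells each, in groups of 3 to 5 mice. Each of the 4 comparisons between single groups shares a group of libraries with 2 of the other 3.

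The gene with the smallest p in 3 of the 5 comparisons was Shank1 (chr7:44310253-44360572, plus strand), which encodes a scaffold of the excitatory postsynaptic density. It was at 72.9, 71.8 and 84.9 CPM in wild-type oil and at 151, 172, 161, 224 and 225 CPM in wild-type tamoxifen. Esr1 cKO oil had 337, 190, 257 and 171 CPM and Esr1 cKO tamoxifen 164, 163 and 181 CPM. The 3 wild-type oil libraries lay below all 12 others, which overlapped one another. The log2 difference from wild-type oil was 1.30 with tamoxifen (SE 0.29, edgeR adjusted p = 0.843) and 1.66 in Esr1 cKO oil (SE 0.29, adjusted p = 0.0598), and the difference of the tamoxifen effects was -1.82 (SE 0.39, adjusted p = 0.61). Over 26 alternative settings the genotype difference under oil stayed between 1.20 and 1.83, with adjusted p-values of 0.0313 to 0.9999. It passed the threshold in 3 of them, without Esr1 cKO oil replicate 4 (1.80, adjusted p = 0.0324), among cells under 5% mitochondrial UMIs (1.83, adjusted p = 0.0313) and without called doublets (1.67, adjusted p = 0.047). Without wild-type oil replicate 1, 2 or 3 the adjusted p was 0.702, 0.767 and 0.327, and it was 0.382 with a block for each 4 successive library numbers.

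**Figure D5:**
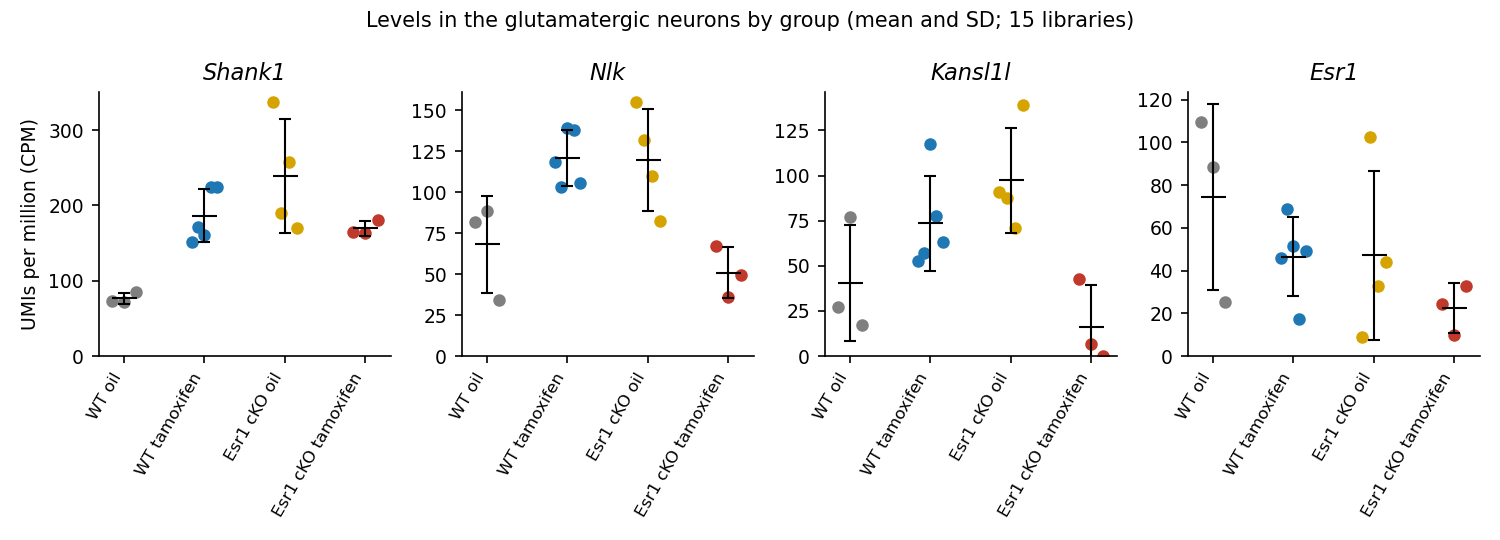
Level of Shank1, Nlk, Kansl1l and Esr1 (y axes, CPM) in the glutamatergic neurons of 15 libraries by group. Points are libraries, with the mean as a dash and the SD as a bar. The 3 wild-type oil libraries have Shank1 levels of 71.8 to 84.9 and lie below the other 12, while Esr1 overlaps between all groups.

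Nlk, a serine/threonine kinase of Wnt signalling, had 82.0, 88.4 and 33.9 CPM in wild-type oil, 118, 103, 139, 138 and 105 CPM in wild-type tamoxifen, 155, 132, 110 and 82.1 CPM in Esr1 cKO oil and 66.9, 35.8 and 49.4 CPM in Esr1 cKO tamoxifen. The Esr1 cKO tamoxifen libraries lay below all those of Esr1 cKO oil and of wild-type tamoxifen, but no test of Nlk passed (difference of the tamoxifen effects -2.05, SE 0.50, adjusted p = 0.9999). Kansl1l, related to a subunit of a chromatin-modifying complex, changed by -2.44 with tamoxifen in Esr1 cKO mice (SE 0.64, edgeR adjusted p = 0.9998), from 91.2, 87.8, 71.2 and 139 CPM to 42.6, 6.52 and 0 CPM, without overlap. The other genes of smallest p were Mtx2 (1.53) and Olfm3 (1.51) for tamoxifen in wild-type mice and Smek2 (-1.42) for tamoxifen in Esr1 cKO mice. For genotype they were Pygo1 (1.28) and Kidins220 (1.19) under oil, and Gm1976 (-2.03) and Ptgds (-5.54) under tamoxifen. None was past the threshold in the filtered fit. Without the filter on low counts, Kansl1l passed for tamoxifen in Esr1 cKO mice (-2.39, edgeR adjusted p = 0.0239). Gm1976 (-1.93, adjusted p = 0.0298) and Ptgds (-5.39, adjusted p = 2.72e-35) passed in that fit for genotype under tamoxifen. The value of Ptgds, a prostaglandin synthase gene abundant in meninges and glia, rested on wild-type tamoxifen replicate 3, at 5197 CPM against 45.8 to 388 CPM in the other 4 libraries of its group.

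Lists of genes had 0 members called in any of the 5 comparisons. For tamoxifen in wild-type mice the median log2 fold change was 0.08 over 6 AMPA receptor genes, 0.05 over 11 immediate early genes, 0.04 over 14 peptide precursors and -0.05 over 7 hormone receptors, beside 0.01 over all genes. Other lists lay further from 0. Potassium channels (11 genes) had medians of 0.26 for tamoxifen in wild-type mice, -0.75 in Esr1 cKO mice and -1.11 for the difference of these effects, and paraventricular and supraoptic markers (5 genes) had 0.94, 0.07 and -0.71. The 6 tested thalamic and habenular markers had 0.73, 0.03 and -0.65, and 3 of the 5 wild-type tamoxifen libraries and 1 of the 3 wild-type oil libraries were among those numbered 9 to 16. The part of library number in that median was not tested.

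Markers of oligodendrocytes, which these neurons should lack, were measured in the same comparisons, and none passed the threshold. The 4 tested had medians of 0.94 for tamoxifen in wild-type mice, -1.02 in Esr1 cKO mice and -1.88 for the difference of these effects. The summed level of all 10 listed markers, none at 0 and Mbp the most abundant, was 747, 696 and 653 CPM in wild-type oil and 2214, 1065, 1232, 2285 and 905 CPM in wild-type tamoxifen. It was 720, 2998, 778 and 695 CPM in Esr1 cKO oil and 639, 417 and 807 CPM in Esr1 cKO tamoxifen. The wild-type groups did not overlap and the Esr1 cKO groups did, with 1 high library, Esr1 cKO oil replicate 2 at 2998 CPM. In every other marker or gene list summed in this way, the wild-type groups overlapped. With 3 against 5 libraries, an exact permutation test allows no two-sided p below 0.0357, and the summed lists were not tested. The part of these transcripts in the comparisons of conditions was not tested.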

How the data were processed

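Single-cell Drop-seq libraries of 16 female mice were analysed from the deposited UMI counts per gene and barcode, which the authors aligned to mm10. The submitters' processing notes name STAR 2.6 and Seurat 3.6.1. In the study's methods 3.6.1 is the version of R, and Seurat has another version number. The counts were used as deposited. Members and gene lists were chosen with earlier results of these data known. Replicate numbers follow accession order and only name libraries. Doublets were called with Scrublet and kept (4 of 607 cells, 0.659%). Total UMIs per library ran from 2634253 to 8038158 and those of the selected neurons from 4537 to 306870.

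Counts were summed per library and tested in edgeR 4.0.16 (TMM, quasi-likelihood, Benjamini-Hochberg over all genes, threshold 0.05) in libraries with at least 10 cells. Comparisons of cell kinds used the library as a block and adjusted p-values over genes that the selection had not used. Shares were compared by exact two-sided permutation tests. Clusters came from scanpy 1.11.5 (Leiden). DESeq2 1.42.0, other filters and leave-one-out fits were alternatives. Named genes were the 3 of smallest p per condition comparison, the 10 of largest fold in each direction among called genes that differed in every library, list genes, and the 5 leading genes per cluster. Some genes that this rule names are not reported here. The fits were tested on simulated data. That labels name separate samples is all that makes them replicates, so p-values measure the spread between these libraries.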

Additional observations from a re-analysis of the deposited data

Results flagged for a closer look

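Of 39 groups of 4 or 5 libraries examined over 18 measures, 2 held a library far from the rest of its group, and chance gives about 1 in 20. Ptgds in the glutamatergic neurons of wild-type tamoxifen replicate 3 stood at 5197 CPM, against 45.8 to 388 CPM in the other 4 libraries of that group. Slc17a6, a gene of the selection, stood at 767 CPM in wild-type tamoxifen replicate 2, against 1045 to 1121 CPM in the other 4, and Avp took 54827 CPM in that library. The part of Avp in this value was not tested.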

How the results depend on the processing

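Condition calls stayed at 0 of 4327 genes in all 5 comparisons with a replicate block of each 4 successive library numbers. Deviations of libraries in 1 such set had a median r of 0.0218 (20 pairs, -0.169 to 0.681), against 0.000931 in different sets (63 pairs, -0.508 to 0.290). Whether a set marks a processing day is not given in the labels. Without a filter on low counts the calls were 8, 11, 6, 3 and 19 (tamoxifen in wild-type, tamoxifen in Esr1 cKO, their difference, genotype under oil, genotype under tamoxifen). Without the 2 libraries that stood apart tamoxifen in Esr1 cKO gave 1 call and genotype under tamoxifen 2 (Gm15862 and Gnrh1). Under 5% mitochondrial UMIs, and without called doublets, genotype under oil gave 1 call (Shank1), and DESeq2 gave 1 for genotype under tamoxifen. Leaving out a library gave 0 to 1 for genotype under oil and 0 to 0 elsewhere. Against GABAergic neurons the calls were 638 without a filter (173 higher and 465 lower), of which 210 were among the 342. DESeq2 called 264, all among the 342, and leaving out a library gave 266 to 364. After thinning the calls were 79. Of the 342 genes, 188 were then not tested, 64 were still called and 1 had the opposite sign. Against Foxb1 neurons the calls were 262 without a filter (179 higher and 83 lower), 81 with DESeq2 and 33 after thinning. Leaving out a library they were 116 to 193, with 119 without wild-type oil replicate 1 and 116 without wild-type tamoxifen replicate 1. The share difference of tamoxifen in Esr1 cKO mice changed sign to -0.298 with 1 or more Slc17a6 UMIs, -0.00248 with 3 or more, -0.225 above 500 genes, -0.988 without the 2 apart libraries and -0.118 without shared barcodes, an alternative chosen after seeing the data. After thinning to 1000 UMIs it was 0.884. Leaving out a library it ran from -0.988 to 1.56, and the others from -2.54 to -1.27 (tamoxifen in wild-type), -3.44 to -2.19 (genotype under oil) and -1.91 to 0.640 (genotype under tamoxifen). With 1 or more Slc17a6 UMIs, tamoxifen in wild-type gave -0.581 and genotype under tamoxifen -2.06. Genotype under tamoxifen gave -0.228 with 3 or more and -0.383 after thinning. The cause of these changes was not tested. Of 653 pairs of a named gene and a setting in the comparisons of cell kinds, 642 kept direction and threshold and 0 reversed. These genes were chosen for differing in every library, and many passed the filter through 1 kind alone. The tally therefore describes them and does not test their stability.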
